A study of Arabidopsis thaliana with 30 samples.

Results

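Glucosinolates are sulfur-rich defense compounds of the Brassicaceae, and the set of genes described here covers their regulation, synthesis, transport and breakdown in the Arabidopsis (Arabidopsis thaliana) inflorescence stem. It was chosen by gene identity and holds 10 of the 37051 genes in the deposited count tables: the regulators MYB28 (AT5G61420), MYB29 (AT5G07690) and MYB76 (AT5G07700), the cytochrome P450 enzymes CYP79F1 (AT1G16410), CYP79F2 (AT1G16400) and CYP83A1 (AT4G13770), the transporters GTR1 (AT3G47960) and GTR2 (AT5G62680), and the myrosinases TGG1 (AT5G26000) and TGG2 (AT5G25980). RNA was profiled from nuclei that were sorted by fluorescence (fluorescence-activated nucleus sorting) from the second bottom-most internode, with 3 libraries for each of 10 nucleus populations. All plants were of the Col-0 background and carried a histone H4-GFP fusion, which labels nuclei, under a tissue-related promoter: NST3pro for fibers, VND7pro for differentiating vessels, PXYpro for differentiating xylem with the proximal cambium, SMXL5pro for differentiating phloem with the distal cambium, APLpro for differentiated phloem, SCRpro for the starch sheath and LTP1pro for the epidermis. GFP-positive nuclei were taken from all 7 lines and GFP-negative nuclei, the remainder of the stem, from the NST3pro, SMXL5pro and APLpro lines. No treatment is named in the labels, and plants of the 7 lines were homozygous for the reporter. Since each tissue came from its own line and its own preparations, tissue, line and preparation cannot be told apart, and the labels do not say whether the libraries of a group came from separate plants, so that p-values measure the spread between libraries.

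In the pathway, the aliphatic glucosinolates are built from methionine. Its side chain is first lengthened, CYP79F1 and CYP79F2 then convert the lengthened amino acids to oximes, and CYP83A1 oxidizes these further toward the glucosinolate core. MYB28, MYB29 and MYB76 are related R2R3-type MYB transcription factors that activate this branch, while the indole branch, which starts from tryptophan, uses other MYB factors and other P450 enzymes. GTR1 and GTR2 are plasma membrane importers that load finished glucosinolates toward the phloem. TGG1 and TGG2 are thioglucosidases that split glucosinolates into toxic products upon tissue damage, and in leaves they are known from guard cells and from idioblasts of the phloem, called myrosin cells. In stems, cells rich in glucosinolates, the S-cells, lie outside the phloem next to the starch sheath.

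Several members are near copies of each other, which matters because only reads with a single genomic hit were counted. CYP79F1 (chr1:5608682-5612064, plus strand, TAIR10.1) lies directly downstream of CYP79F2 (chr1:5605044-5607498, plus strand), and of the 50-base stretches of each gene, which is the read length, 98.4% and 97.8% occurred once in the genome. The longest run of bases that both genes share is 100 bases long and lies within a coding exon of both, at chr1:5609966-5610065 in CYP79F1 and at chr1:5606398-5606497 in CYP79F2. It is shown because reads from within this run could be assigned to neither gene:
CYP79F1 and CYP79F2: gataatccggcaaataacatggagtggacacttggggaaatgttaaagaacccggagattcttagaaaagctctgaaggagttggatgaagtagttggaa
In TGG1 (chr5:9079452-9082384, minus strand) and TGG2 (chr5:9072708-9075777, plus strand), which lie near each other in opposite orientation, 99.8% of the 50-base stretches of each were unique. All stretches were unique in MYB28 (chr5:24689069-24691187, minus strand), MYB29 (chr5:2446669-2448584, plus strand), MYB76 (chr5:2450027-2451807, plus strand), CYP83A1 (chr4:7990429-7992429, minus strand), GTR1 (chr3:17697942-17700923, minus strand) and GTR2 (chr5:25165137-25168060, minus strand). Other annotated genes overlapped 12.8% of GTR1 and 2.497% of GTR2, whereas the other 8 members had no overlap.

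The upstream sequences of TGG1 and TGG2 are shown because the levels of both genes moved together across the stem, as described below. The 250 bases before each annotated start (RefSeq annotation of TAIR10.1), from chr5:9082385-9082634 on the minus strand for TGG1 and from chr5:9072458-9072707 on the plus strand for TGG2, held 3 identical runs of at least 10 bases in the same order, given in capitals.
TGG1: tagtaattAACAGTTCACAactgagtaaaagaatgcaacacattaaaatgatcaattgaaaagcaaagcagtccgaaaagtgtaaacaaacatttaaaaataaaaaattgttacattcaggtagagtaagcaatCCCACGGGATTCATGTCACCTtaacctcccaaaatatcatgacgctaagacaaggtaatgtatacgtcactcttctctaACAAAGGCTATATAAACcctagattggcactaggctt
TGG2: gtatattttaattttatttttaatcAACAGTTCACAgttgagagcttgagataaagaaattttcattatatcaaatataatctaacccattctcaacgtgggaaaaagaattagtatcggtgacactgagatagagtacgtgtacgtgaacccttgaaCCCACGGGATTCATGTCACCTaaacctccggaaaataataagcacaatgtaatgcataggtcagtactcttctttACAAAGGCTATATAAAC
The run CCCACGGGATTCATGTCACCT is 21 bases long, begins 116 bases before the start of TGG1 and 92 bases before that of TGG2, and occurred, on either strand, in 2 of 27443 upstream stretches of this length. ACAAAGGCTATATAAAC is 17 bases long, begins 37 and 17 bases before the starts, and occurred in 2 of the 27443 as well, whereas AACAGTTCACA, 11 bases long, occurred in 6 of them. TGG1 and TGG2 are included in each of these counts, because the runs were taken from their own sequences. A count of 2 therefore means that no other gene held the run, and a link to the shared levels was not tested. Among all 45 pairs of members, the next longest shared upstream run was 12 bases long, between CYP79F2 and GTR1.

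For the aliphatic branch, the same window of CYP83A1 is shown because it was the single member to hold both kinds of motif searched on both strands. These were CACGTG, the core bound by MYC-type factors, and 4 spellings of sites bound by R2R3-type MYB factors, which were ACCTAAC (found in 2.46% of all 27443 upstream stretches), ACCTACC (found in 1.162%), ACCAACC (found in 2.69%) and ACCAAAC (found in 8.29%). In the 250 bases from chr4:7992430-7992679 on the minus strand, the capitals mark ACCTACC as read on the other strand, which begins 71 bases before the start, and CACGTG, which begins 43 bases before the start.
CYP83A1: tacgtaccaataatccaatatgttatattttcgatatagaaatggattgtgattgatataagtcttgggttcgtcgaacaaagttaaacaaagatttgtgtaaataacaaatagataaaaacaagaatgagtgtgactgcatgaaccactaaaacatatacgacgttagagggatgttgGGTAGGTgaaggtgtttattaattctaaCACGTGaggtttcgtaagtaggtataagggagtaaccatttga
CACGTG was found in 1 of the 10 members and in 6.49% of all stretches, and at least 1 of the 4 MYB-type spellings in 2 members, CYP79F2 and CYP83A1, and in 13.7% of all stretches. The motifs were searched as letters and were chosen after expression values had been seen.

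Total reads per library ranged from 725545 to 18335693 with a median of 3669054, and the 10 members together took 0.0628 to 0.831% of them. The study left out 4 of the 21 GFP-positive libraries, NST3pro replicate 2, VND7pro replicate 6, APLpro replicate 15 and LTP1pro replicate 19. Their profiles differed from those of the same tissue, and some genes in them departed from their known expression. Comparisons between tissues therefore rest on 17 libraries, and since the choice used the same expression values, the spread between the remaining libraries is a low estimate; counts with all 21 are given beside them. Levels are printed as normalized read counts scaled to a library of 1000000 reads (CPM), from a common TMM normalization of all 30 libraries, and the tests were run on the counts. The gene that gave each promoter stood highest in its own line by its mean for NST3, VND7, PXY, SMXL5, APL and SCR, but APL at 51.4 and 63.4 in APLpro overlapped with 34.9 to 57.9 in PXYpro, PXY at 235 to 313 in PXYpro overlapped with 236 and 267 in VND7pro, and LTP1 itself stood at 22.9 and 29.4 in LTP1pro, below 63.3 and 75.0 in VND7pro. Other epidermal genes were highest in LTP1pro, with CER6, an enzyme of wax synthesis, at 595 and 675 against at most 250.2 elsewhere. These levels are from the kept libraries. Since the study chose these partly by the known expression of characterized genes, the levels are no independent check of the tissues. GFP reads, not scaled to library size, numbered 90 to 162 in all GFP-positive and 0 to 25 in all GFP-negative libraries of the NST3pro line. They numbered 25 to 57 and 3 to 6 in the SMXL5pro line and 327 to 949 and 9 to 77 in the APLpro line, without overlap within a line.

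Across the 7 tissues, 9 of the 10 members differed at an adjusted p below 0.01, against 26.1% of the 32659 genes tested. MYB76 was the exception, with an adjusted p of 0.14. Reads from MYB29, CYP79F1 and CYP83A1 were most abundant in the xylem-side tissues PXYpro and NST3pro and in the starch sheath, GTR1, TGG1 and TGG2 reached their highest mean in the starch sheath, GTR2 was highest in APLpro and VND7pro, and MYB28 and CYP79F2 had their highest mean in NST3pro. The phloem cap, the cortex and the pith were not among the sorted tissues, so that this order holds for the 7 tissues only. With laser-cut samples, the study found more CYP83A1 reads in the phloem cap than in the remaining vascular bundle. It also saw a MYB29 promoter reporter active there. In bulk libraries such as these, fewer nuclei of a cell type that expresses a gene and less RNA per nucleus cannot be told apart. With all 21 libraries, 7 members remained past the threshold, against 17.3% of 31583 genes, and CYP79F2 and GTR2 were lost with adjusted p = 0.060 and 0.048.

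**Figure D1:**
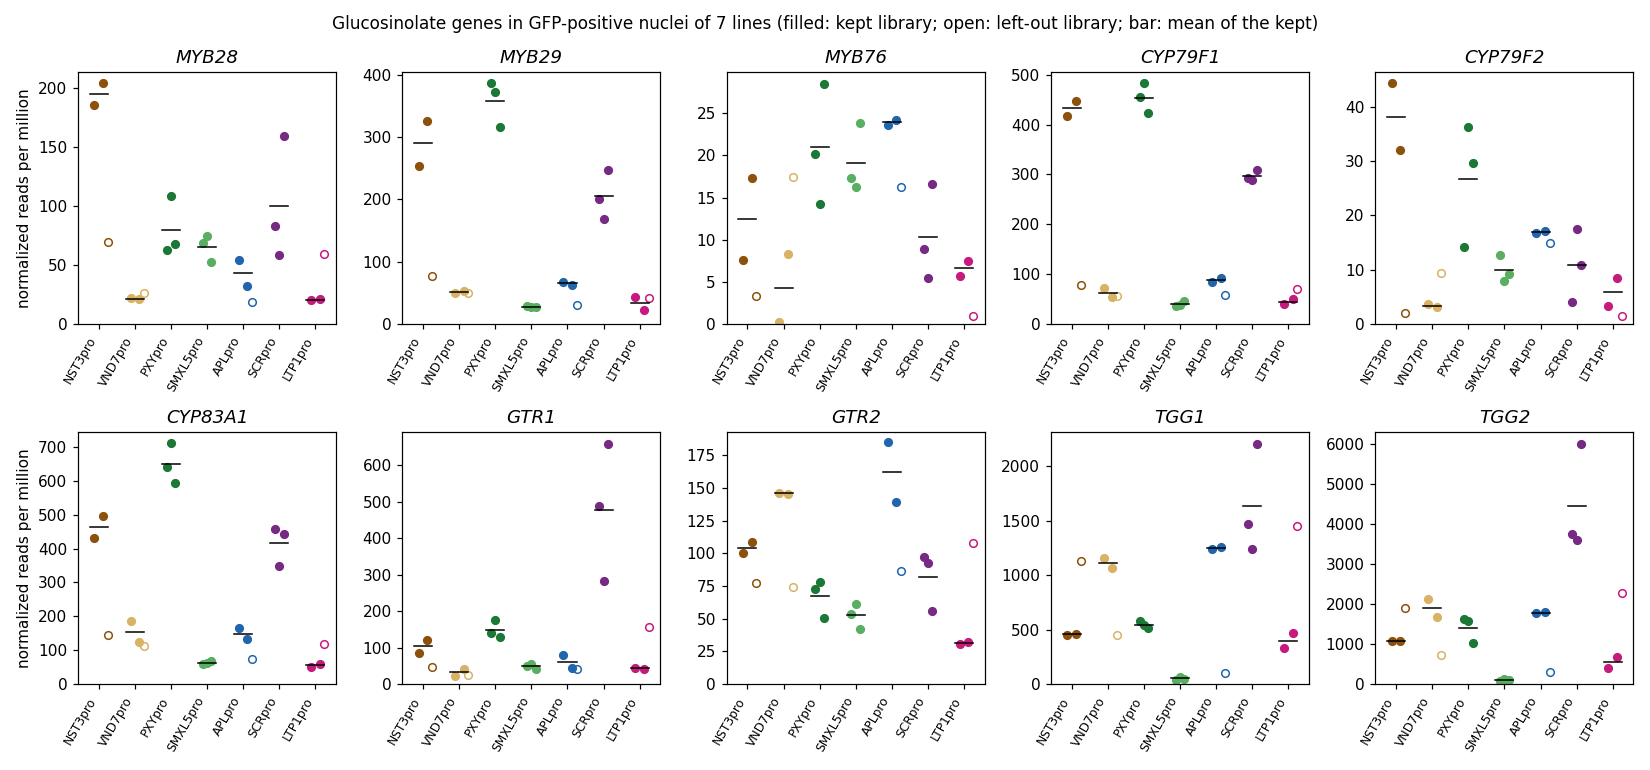
Levels of the 10 members in the GFP-positive nuclei of 7 stem tissues, in CPM on a linear axis that starts at 0 and differs between genes, with a filled point for each of the 17 kept libraries, an open point for each of the 4 left out by the study, and a bar for the mean of the kept libraries. CYP79F1 lies between 288 and 483 in all kept PXYpro, NST3pro and SCRpro libraries and at or below 92.0 in all others, and TGG1 and TGG2 drop to at most 70.5 and 136 in SMXL5pro.

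When each tissue was compared with the mean of the other six, 36 of the 70 member-tissue comparisons passed an adjusted p of 0.01, 20 of them higher and 16 lower. In SCRpro 6 members were higher and 0 lower, against 6.36% and 1.59% of all genes tested. NST3pro had 5 higher and 0 lower, against 8.76% and 3.29%, and PXYpro 4 and 0, against 7.38% and 0.723%. In contrast, SMXL5pro and LTP1pro had 0 higher and 6 lower each, where 2.13% and 11.4% of all genes were higher and lower in SMXL5pro and 3.11% and 6.12% in LTP1pro. VND7pro was mixed with 3 higher and 4 lower, against 10.3% and 2.05%, and APLpro had 2 higher and 0 lower, against 1.00% and 2.96%. The median log2 fold change of the 10 members was 1.23 in SCRpro, 0.99 in PXYpro, 0.94 in NST3pro, 0.04 in APLpro, -1.08 in VND7pro, -1.35 in LTP1pro and -1.39 in SMXL5pro, where the median of all genes tested was -0.04, 0.10, -0.16, 0.31, -0.08, 0.33 and 0.36. Between pairs of tissues, 102 of 210 comparisons passed an adjusted p of 0.01 and a log2 fold change above 1 in size, against 9.01% over all genes and the 21 pairs, and these ranged from 0 of 21 for MYB76 to 16 of 21 for CYP83A1. With all 21 libraries, the 36 calls became 20 and the 102 became 52. All 20 were among the 36 and had the same direction. Of the members 6 were then higher in SCRpro, against 4.07% of all genes, and 3 each in NST3pro and PXYpro, against 3.52% and 3.44%, while 5 were lower in SMXL5pro, against 2.92%, 2 in LTP1pro, against 0.592%, 1 in VND7pro, against 0.792%, and 0 were called in APLpro.

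Of the regulators, MYB28 was the member with the clearest maximum in fibers. Its level stood at 186 and 204 in NST3pro, at 83.2, 58.1 and 159.6 in SCRpro, at 63.0, 109 and 68.0 in PXYpro and at 68.7, 74.7 and 52.3 CPM in SMXL5pro. In the other tissues it stood at 54.5 and 32.2 in APLpro, 22.1 and 20.9 in VND7pro and 20.0 and 21.1 in LTP1pro. Both NST3pro libraries lay above all kept libraries of the other tissues, but the step to SCRpro, the next tissue in the order, did not pass (log2 fold change 1.01, adjusted p = 0.040). Compared with the other six tissues, MYB28 was higher in NST3pro by a log2 fold change of 2.06 ± 0.24 (SE; adjusted p = 1.8e-06) and lower in VND7pro and LTP1pro by -1.61 and -1.67. The third NST3pro library, left out by the study, stood at 69.2, within the range of PXYpro. GFP-negative nuclei of the NST3pro line, the remainder of the stem, stood at 427, 58.5 and 286.

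MYB29 was high in PXYpro, NST3pro and SCRpro. It reached 386, 371 and 316 CPM in PXYpro, 254 and 325 in NST3pro and 200.1, 168 and 247 in SCRpro. Its levels were 67.0 and 62.8 in APLpro, 50.03 and 53.2 in VND7pro, 43.7 and 23.1 in LTP1pro and 29.2, 26.7 and 26.6 in SMXL5pro. The first group of tissues did not overlap with the second, and the single step in this order that passed the pairwise threshold was the one from SCRpro to APLpro (log2 fold change 1.61, adjusted p = 0.00013). Against the other six tissues, MYB29 rose in PXYpro by 2.28 ± 0.15, in NST3pro by 1.89 ± 0.17 and in SCRpro by 1.24 ± 0.16 on the log2 scale, and fell in SMXL5pro (-2.07 ± 0.20), LTP1pro (-1.72) and VND7pro (-0.99).

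MYB76, which lies directly downstream of MYB29, was low everywhere. Its 17 values ranged from 0.233 CPM, a single read in VND7pro replicate 4, over a median of 16.2 to 28.5 in PXYpro replicate 9, and the tissues overlapped. To show how such levels compare with stray reads, the reads per kilobase of each member were divided by the reads per kilobase on 3903 annotated pseudogenes in the same library. This ratio had a mean of 0.95 to 5.09 per tissue for MYB76 and stayed above 1 in each kept library for MYB28 and MYB29, with tissue means of 2.47 to 46.2 and 3.71 to 82.6. In SMXL5pro, APLpro and LTP1pro the pseudogene density itself was higher, at 3.36 to 4.21 CPM per kilobase, than in the other tissues, at 1.62 to 2.55, and when it was subtracted from the counts, 32 member-tissue calls were made, of which 29 were among the 36.

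**Figure D2:**
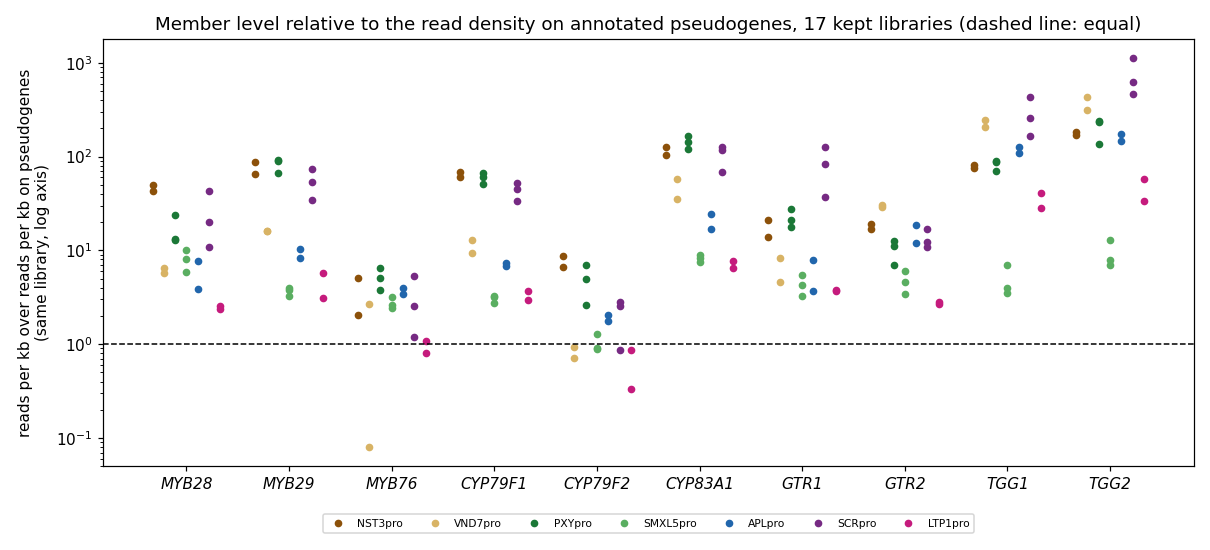
Reads per kilobase of each member divided by the reads per kilobase on annotated pseudogenes of the same library, on a log axis, with a point for each of the 17 kept libraries colored by tissue and a dashed line where both are equal. TGG2 reaches ratios of 461 to 1117 in SCRpro. MYB76 falls below the line in libraries of VND7pro (0.081) and LTP1pro (0.81). CYP79F2 falls below it in libraries of VND7pro, LTP1pro, SMXL5pro and SCRpro, down to 0.34 in LTP1pro.

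Of the synthesis genes, CYP79F1, whose product acts on methionine derivatives of short and long chain length, showed the sharpest separation between tissues. Its levels were 456, 483 and 423 CPM in PXYpro, 418 and 447 in NST3pro and 294, 288 and 309 in SCRpro. They were 84.1 and 92.0 in APLpro, 71.2 and 54.5 in VND7pro, 40.0 and 49.1 in LTP1pro and 36.9, 37.3 and 46.7 in SMXL5pro. Thus, the lowest of the first group, 288, was above the highest of the second, 92.0, and the step between SCRpro and APLpro passed (log2 fold change 1.71, adjusted p = 7.5e-06), whereas PXYpro and NST3pro did not differ beyond their spread (0.10, adjusted p = 0.82). Compared with the other six tissues, CYP79F1 was higher in PXYpro by 2.15 ± 0.12 (adjusted p = 1.3e-10), in NST3pro by 2.03 ± 0.14 and in SCRpro by 1.34 ± 0.13 on the log2 scale, and lower in SMXL5pro by -1.95 ± 0.16, in LTP1pro by -1.74 and in VND7pro by -1.18.

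CYP79F2, whose product prefers long-chain substrates, was far less represented than its neighbor: per kilobase, CYP79F1 had 1.75 to 51.6 times as many reads across the 30 libraries, with a median of 8.44. CYP79F2 stood at 44.3 and 32.01 CPM in NST3pro and at 14.2, 36.4 and 29.7 in PXYpro, at 16.7 and 17.2 in APLpro and at 4.13, 17.5 and 10.9 in SCRpro. In SMXL5pro it stood at 12.7, 7.85 and 9.19, in LTP1pro at 3.27 and 8.37 and in VND7pro at 3.72 and 3.05. NST3pro and PXYpro overlapped with each other, and in VND7pro, LTP1pro, SMXL5pro and SCRpro at least 1 library lay below the pseudogene density. The gene was higher in NST3pro than in the other six tissues by 1.92 ± 0.42 (adjusted p = 0.0024), but this call was lost with all 21 libraries (1.39, adjusted p = 0.089), where the left-out NST3pro library stood at 2.08, and without either of the kept NST3pro libraries.

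CYP83A1 was the most abundant of the synthesis genes, also per kilobase. It reached 639, 710.2 and 594 CPM in PXYpro, 431 and 496 in NST3pro and 457, 348 and 442 in SCRpro. Intermediate levels were found in VND7pro, at 187 and 123, and in APLpro, at 165 and 134, while SMXL5pro stood at 60.6, 61.4 and 69.7 and LTP1pro at 51.5 and 60.6. The order thus had 3 levels, since the steps from SCRpro to VND7pro (log2 fold change 1.34, adjusted p = 0.00019) and from APLpro to SMXL5pro (1.21, adjusted p = 0.00069) passed, and no other neighbors differed beyond the threshold. Compared with the other six tissues, it was higher in PXYpro by 2.06 ± 0.13, in NST3pro by 1.46 ± 0.16 and in SCRpro by 1.21 ± 0.14, and lower in LTP1pro by -2.05 and in SMXL5pro by -1.87 ± 0.17.

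The transporters differed from the synthesis genes and from each other. GTR1 was most abundant in the starch sheath, with 488, 283 and 659.6 CPM in SCRpro, followed by 140.4, 177 and 130.3 in PXYpro and 85.8 and 121 in NST3pro. It stood at 79.3 and 43.9 in APLpro, 50.7, 56.5 and 40.9 in SMXL5pro, 44.1 and 42.4 in LTP1pro and 22.3 and 42.7 in VND7pro. All SCRpro libraries lay above all others, and the step to PXYpro passed (log2 fold change 1.58, adjusted p = 0.00092). Relative to the other six tissues, GTR1 was higher in SCRpro by 2.83 ± 0.19 (adjusted p = 7.0e-10) and in PXYpro by 0.99 ± 0.21 and lower in VND7pro by -1.61 and in SMXL5pro by -0.91 ± 0.24.

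GTR2, in contrast, was highest in APLpro, at 185 and 139 CPM, and in VND7pro, at 146 in both libraries. Next were NST3pro with 100.1 and 109, SCRpro with 96.97, 92.6 and 55.8 and PXYpro with 72.7, 77.9 and 50.8. SMXL5pro had 54.0, 61.6 and 42.5 and LTP1pro 31.0 and 32.3. Its range was the narrowest among the members that passed, with the highest mean 5.11 times the lowest, against 9.49 to 41.3 times for the other 8, and none of the steps between neighbors in the order passed. GTR2 was higher than in the other six tissues in APLpro (1.15 ± 0.20, adjusted p = 0.00093) and VND7pro (1.01 ± 0.21, adjusted p = 0.0010) and lower in LTP1pro (-1.54). Neither increase was called with all 21 libraries, in which the left-out libraries stood at 86.7 in APLpro and 74.3 in VND7pro, and in APLpro the call was also lost without replicate 13 (0.94, adjusted p = 0.069).

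The myrosinase genes were the most abundant members, and SMXL5pro nuclei stood apart from all other tissues by their low levels. TGG1 had 1468, 1241 and 2203 CPM in SCRpro, 1242 and 1254 in APLpro and 1157 and 1065 in VND7pro. It had 583, 546 and 512 in PXYpro, 455 and 458 in NST3pro and 329.5 and 467 in LTP1pro, but 40.8, 70.5 and 49.1 in SMXL5pro. The order therefore fell into 3 levels, with passing steps from VND7pro to PXYpro (log2 fold change 1.01, adjusted p = 0.0072) and from LTP1pro to SMXL5pro (2.93, adjusted p = 7.5e-08). The mean in SCRpro was 30.6 times that in SMXL5pro. Relative to the other six tissues, TGG1 was higher in SCRpro by 1.82 ± 0.15, in APLpro by 1.42 ± 0.18 and in VND7pro by 1.26 ± 0.18 on the log2 scale and lower in SMXL5pro by -3.87 ± 0.23 (adjusted p = 4.9e-10). The mean of the other six includes the low SMXL5pro levels. In a fit without SMXL5pro, the members called higher in VND7pro went from 3 to 1, and APLpro had 2 higher and 2 lower.

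TGG2 followed the same order, with APLpro and VND7pro exchanged, and a larger lead of the starch sheath. Its levels were 3756, 3613 and 6013 CPM in SCRpro, 2126 and 1691 in VND7pro, 1787 and 1796 in APLpro and 1620.0, 1582 and 1033 in PXYpro. They were 1072 and 1079 in NST3pro, 411 and 689 in LTP1pro and 85.7, 136 and 102 in SMXL5pro. Every SCRpro library lay above, and every SMXL5pro library below, all other kept libraries, and the steps from SCRpro to VND7pro (log2 fold change 1.14, adjusted p = 0.0080) and from LTP1pro to SMXL5pro (2.38, adjusted p = 4.7e-06) passed. TGG2 was higher in SCRpro by 2.37 ± 0.17 and in VND7pro by 1.03 ± 0.21 than in the other six tissues and lower in SMXL5pro by -3.82 ± 0.26 and in LTP1pro by -1.04, while 0.89 ± 0.21 in APLpro missed the threshold (adjusted p = 0.011).

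The left-out libraries also differed from the kept ones of their tissue in the myrosinase genes, as they did in other members, such as CYP79F2 with 2.08 in the left-out NST3pro library against 44.3 and 32.01. TGG1 stood at 106 in the left-out APLpro library against 1242 and 1254 in the others, at 1455 in the left-out LTP1pro library against 329.5 and 467, at 1127 in the left-out NST3pro library against 455 and 458, and at 450.0 in the left-out VND7pro library against 1157 and 1065. TGG2 showed the same shifts, with 304, 2271, 1896 and 737. With them, TGG1 and TGG2 were still higher in SCRpro (1.80 ± 0.42 and 2.36 ± 0.39) and lower in SMXL5pro (-3.92 ± 0.65 and -3.86 ± 0.63), whereas the increases in APLpro and VND7pro were not called.

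TGG1 and TGG2, whose shared upstream runs are shown above, kept a narrow ratio while their levels varied. Per kilobase, TGG2 had 1.19 to 3.00 times the reads of TGG1 in the 30 libraries, with a median of 1.96, and the Pearson correlation of their log2 levels over these libraries was 0.98, which is a description of libraries that share lines and preparations. Among the other members, the highest correlations over the 17 libraries were those of CYP79F1 with MYB29 (0.98) and with CYP83A1 (0.98) and of MYB29 with CYP83A1 (0.97).

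**Figure D3:**
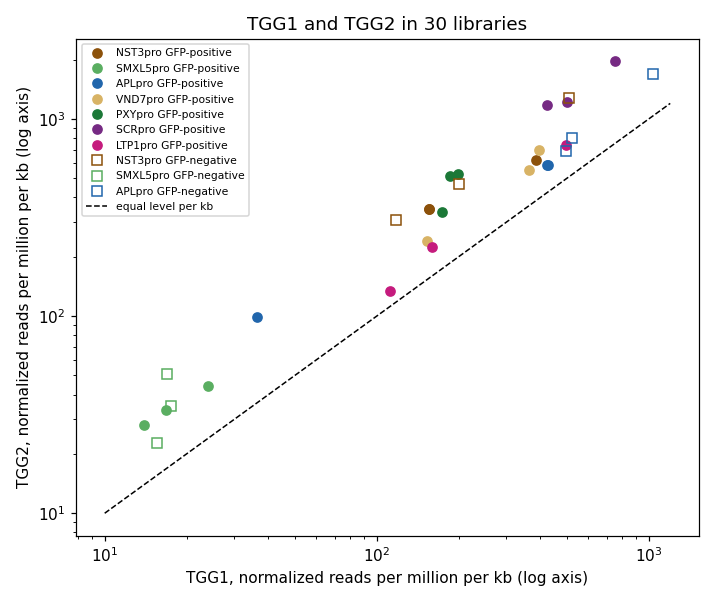
TGG2 against TGG1 in CPM per kilobase, both axes on a log scale, with a point for each of the 30 libraries, filled for GFP-positive and open for GFP-negative nuclei, and a dashed line of equal level. All points lie above the line, at 1.19 to 3.00 times, and all 6 libraries of the SMXL5pro line lie at the low end.

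Since TGG1 and TGG2 are known from guard cells and myrosin cells, markers of these cells were read beside them. All 6 guard-cell markers (FAMA, KAT1, MYB60, HT1, SCAP1 and GC1) were summed, and the sum was 38.5 to 65.2 CPM in SCRpro, where the myrosinase genes were highest, and 110.4 to 113 in SMXL5pro, where they were lowest. It was 358 and 444 in APLpro, of which KAT1, a potassium channel, made up 281 and 377, 84.8 to 115 in PXYpro, 89.8 and 96.4 in NST3pro, 54.9 and 64.7 in VND7pro and 112 and 113 in LTP1pro. FAMA, which is needed for guard cells and myrosin cells alike, stood at 13.7 to 25.3 in SCRpro, 7.41 and 16.8 in VND7pro, 14.3 to 29.5 in PXYpro, 20.1 and 32.6 in NST3pro, 20.2 to 33.3 in SMXL5pro, 35.1 and 36.96 in LTP1pro and 45.3 and 46.4 in APLpro. The guard-cell marker sum was not highest where TGG1 and TGG2 were highest, and its maximum in APLpro was mostly KAT1. Without KAT1, the sum was highest in LTP1pro, at 78.0 and 81.1, followed by 67.2 and 76.7 in APLpro. It was then 51.6 to 60.9 in SMXL5pro and 19.9 to 43.9 in SCRpro. Of the 6 markers, FAMA alone was read for myrosin cells as well. Which cells held the myrosinase reads was not tested.

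The other genes of the pathway were read from 7 lists of 53 genes in all, of which 49 could be tested. GSTF11, CYP81F1, CYP81F4 and MYC2 could not, as 98.4 to 100% of their length is overlapped by other annotated genes and reads in such stretches were not counted. In the 7 lists, 35 of 49 genes differed between tissues (26.1% over all genes), and 20 of 23 in the 3 lists of the aliphatic branch. In that branch 19 of the 23 were higher and 0 lower in NST3pro, 17 and 1 in PXYpro and 15 and 1 in SCRpro, while 0 were higher and 16 lower in SMXL5pro, 1 and 12 in LTP1pro, 1 and 13 in VND7pro and 1 and 4 in APLpro. The shares over all genes are those given above for each tissue. CYP79F1 was called in the prevailing direction of these genes in all of the tissues but APLpro, and CYP83A1 in all but APLpro and VND7pro.

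**Figure D4:**
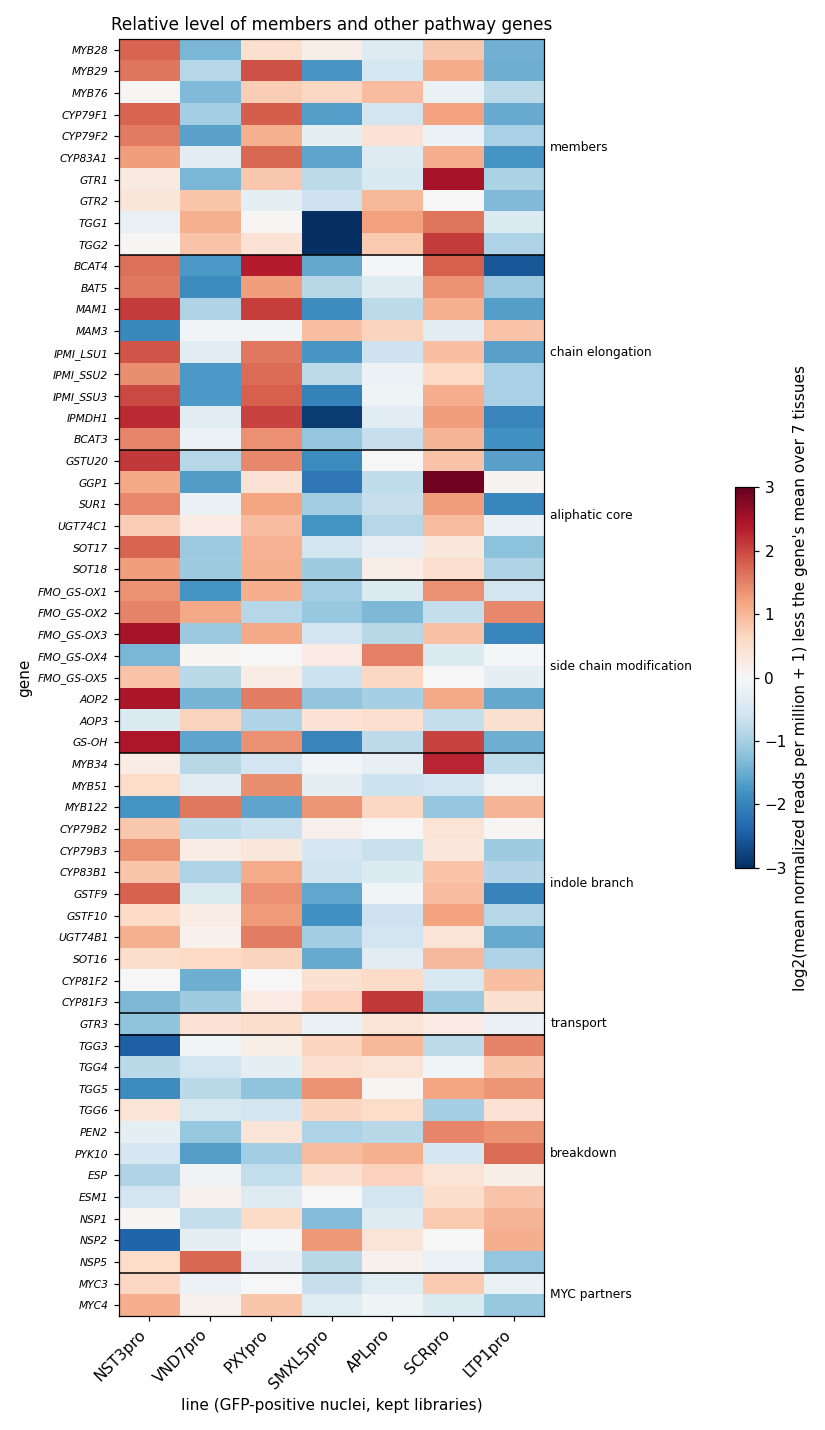
Mean log2 levels of the members and of the other pathway genes in the 7 tissues, each gene relative to its own mean over the tissues, grouped by list, over the 17 kept libraries. Most aliphatic genes are above their mean in NST3pro, PXYpro and SCRpro and below it in SMXL5pro, VND7pro and LTP1pro, with 19, 17 and 15 of 23 called higher in the former and 16, 13 and 12 called lower in the latter.

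Of the chain elongation genes, 8 of 9 differed, all but MAM3. MAM1, the synthase that adds carbon to the methionine side chain, stood at 399 and 477 CPM in NST3pro and 394 to 488 in PXYpro against 22.3 to 29.2 in SMXL5pro, and was higher in PXYpro and NST3pro by 2.47 ± 0.12 and 2.47 ± 0.14 on the log2 scale. BCAT4, the aminotransferase that starts elongation, stood at 209.9 to 276 in PXYpro and 137 to 221 in SCRpro against 6.06 and 8.98 in LTP1pro, and IPMI_LSU1, an isomerase subunit of the same cycle, at 353 and 432 in NST3pro against 23.7 to 35.4 in SMXL5pro. The median log2 fold change of this list was 2.00 in NST3pro and -1.82 in SMXL5pro.

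All 6 tested genes of the aliphatic core differed. GGP1, which processes the glutathione conjugates of the pathway, had its maximum in the starch sheath instead, at 619 to 1037 in SCRpro against 252 and 270.2 in NST3pro and 134 to 174 in PXYpro, and was higher there by 3.33 ± 0.13 (adjusted p = 1.9e-13). SUR1, the C-S lyase, stood at 160 to 205 in SCRpro and 197 and 222 in NST3pro, and GSTU20, a glutathione transferase, at 291 and 375 in NST3pro. Among the genes for side chain modification 6 of 8 differed: GS-OH, an oxygenase, stood at 467 and 473 in NST3pro and 343 to 385 in SCRpro against 16.9 to 24.9 in SMXL5pro, and FMO_GS-OX3, a flavin monooxygenase, at 346 and 381 in NST3pro against 10.6 and 21.4 in LTP1pro.

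The indole branch had 9 of 12 tested genes that differed, with 5 higher and 1 lower in NST3pro, 6 and 0 in PXYpro, 5 and 0 in SCRpro, 1 and 4 in SMXL5pro, 0 and 4 in LTP1pro, 1 and 1 in VND7pro and 1 and 0 in APLpro, where the shares over all genes are again those given above. GSTF9, a glutathione transferase, stood at 766 and 824 in NST3pro and 536 to 660.0 in PXYpro against 53.7 and 60.4 in LTP1pro. GTR3, the third transporter of the family, did not differ between tissues (adjusted p = 0.15). Both tested MYC partners, MYC3 and MYC4, which bind CACGTG and act together with the MYB factors, differed, and MYC4 stood at 159 and 192 in NST3pro against 33.8 and 40.0 in LTP1pro.

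Of 11 other breakdown genes, 4 differed (PEN2, PYK10, NSP1 and NSP5), against 26.1% of all genes. PEN2, an atypical myrosinase that acts on indole glucosinolates, was high in the starch sheath and the epidermis, at 142 to 223 in SCRpro and 170.3 and 176 in LTP1pro against 28.3 to 39.8 in SMXL5pro, and rose in both by 1.65 ± 0.16 and 1.62 ± 0.18 on the log2 scale. NSP5, a specifier protein that directs breakdown to nitriles, stood at 188 in both VND7pro libraries, with a log2 fold change of 2.07 ± 0.17 against the other six tissues, and NSP1 was highest in LTP1pro, at 131 and 156.

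Within the 3 lines from which both populations were sorted, the question was whether the labeled tissue differed from the remainder of the same stems. No member was called in any line: 0 of 10 passed an adjusted p of 0.05 in the NST3pro line, against 0% of 25499 genes, 0 in the SMXL5pro line, against 0.00660% of 30317, and 0 in the APLpro line, against 0.0994% of 31181. With so few genes called at all, a missed threshold does not show equal levels. The study likewise reports that NST3 and APL were not significant in their own lines after adjustment. Before adjustment, it found NST3, SMXL5 and APL higher in the GFP-positive nuclei of their lines. With DESeq2 at the same adjusted p, it called more genes in each line than were called here, so that the number of calls differed between analyses. At an unadjusted p below 0.05, 0, 1 and 1 members were found, which was MYB28 in both cases, beside 1508, 2045 and 2962 of all genes, and DESeq2 called 0 members in each line. These comparisons used all libraries without pairing, and differences of the size seen between tissues could be missed, most of all in the NST3pro line. There the common biological coefficient of variation was 0.898, against 0.312 for the SMXL5pro and 0.431 for the APLpro libraries.

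In the NST3pro line all 10 members had a log2 fold change below 0, as did 49.5% of all genes. The GFP-negative mean was 257 CPM for MYB28, 389 for MYB29, 749 for CYP79F1 and 86.0 for CYP79F2. These lay above the highest mean of each gene in the kept tissue libraries (195, 358, 454 and 38.2), whereas the other members showed no such excess. CYP79F1 stood at 418, 78.7 and 447 CPM in GFP-positive and at 1013, 374 and 861 in GFP-negative nuclei, so that both overlapped through replicates 1, 3 and 47 (-1.31 ± 0.67, adjusted p = 0.82). MYB29 stood at 254, 77.2 and 325 against 554, 76.3 and 535 (-0.86 ± 0.76). CYP79F2 was the single member without overlap, with 44.3, 2.08 and 32.01 against 53.02, 155 and 50.02 (-1.84 ± 1.02, adjusted p = 0.83). Replicate 47, the GFP-negative library with 725545 reads, had a pseudogene density of 12.6 CPM per kilobase against 1.60 and 3.07 in the other two.

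In the SMXL5pro line the log2 fold changes of the members lay between -0.24 and 0.90. MYB28 stood at 68.7, 74.7 and 52.3 in GFP-positive against 38.9, 41.9 and 38.4 in GFP-negative nuclei without overlap (0.73 ± 0.23, adjusted p = 0.58), and CYP79F2 at 12.7, 7.85 and 9.19 against 5.04, 3.27 and 7.44 (0.90 ± 0.48). TGG1 stood at 40.8, 70.5 and 49.1 against 51.5, 45.8 and 49.7 (0.14 ± 0.24), and CYP83A1 at 60.6, 61.4 and 69.7 against 48.7, 53.01 and 80.3 (0.10 ± 0.23), with overlapping values. The low myrosinase levels of SMXL5pro nuclei were thus also found in the GFP-negative nuclei of that line. The other members called lower in SMXL5pro likewise overlapped between both populations. GFP-positive and GFP-negative means were 40.3 and 42.3 CPM for CYP79F1, 63.9 and 60.7 for CYP83A1 and 27.5 and 33.8 for MYB29. GTR1 ranged from 40.9 to 56.5 in GFP-positive and from 34.7 to 71.3 in GFP-negative nuclei. Whether the lower calls in SMXL5pro belong to the labeled tissue or to the whole line was not tested.

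In the APLpro line, TGG1 stood at 1242, 1254 and 106 in GFP-positive and at 3047, 1456 and 1535 in GFP-negative nuclei (-1.20 ± 0.95, adjusted p = 0.66), and TGG2 at 1787, 1796 and 304 against 5177, 2119.9 and 2452 (-1.31 ± 1.02), so that the GFP-positive libraries lay below all GFP-negative ones for both. MYB29, with 67.0, 62.8 and 30.6 against 87.8, 86.4 and 68.2, was the third member that was lower without overlap, and CYP79F2, with 16.7, 17.2 and 14.9 against 12.7, 9.79 and 10.9, was higher without overlap. GTR2 overlapped, with 185, 139 and 86.7 against 142, 67.4 and 65.1 (0.60 ± 0.45). Of the 49 other pathway genes tested in this line 1 passed, CYP81F3, a P450 gene of indole glucosinolate modification named here after its values were seen, with 48.9, 35.9 and 54.6 CPM against 9.30, 8.64 and 11.2 (2.27 ± 0.36, adjusted p = 0.026), and 0 of 45 and 0 of 49 passed in the NST3pro and SMXL5pro lines. The sum of the 6 guard-cell markers was 358 and 444 in the kept GFP-positive and 62.5 to 92.0 in the GFP-negative libraries, and without KAT1 it was 67.2 and 76.7 against 46.1 to 55.4.

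**Figure D5:**
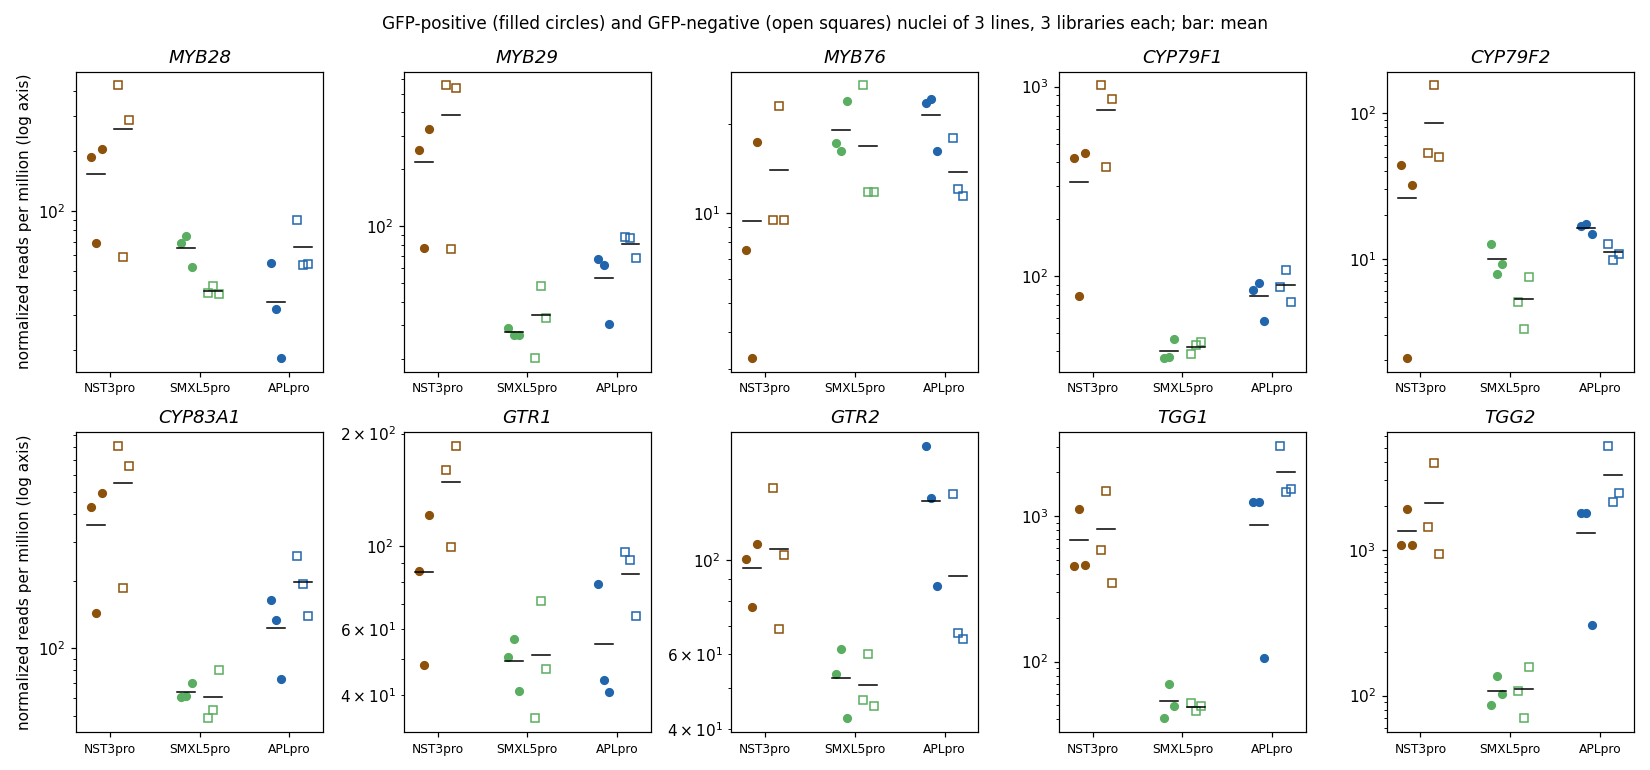
Levels of the 10 members in GFP-positive (filled circles) and GFP-negative (open squares) nuclei of the NST3pro, SMXL5pro and APLpro lines, in CPM on a log axis, with a point for each of the 3 libraries and a bar for their mean. TGG1 stays between 40.8 and 70.5 in all 6 libraries of the SMXL5pro line and reaches 3047 in the GFP-negative nuclei of the APLpro line.

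The difference between positive and negative nuclei was also compared between the lines themselves. No member passed in any of these 3 interaction contrasts, against 0.00313% of 31898 genes for NST3pro and SMXL5pro, 0.436% for NST3pro and APLpro and 0.00627% for SMXL5pro and APLpro. At an unadjusted p below 0.05, 1 of the 10 members was found in each contrast, where 12.6%, 15.4% and 1.64% of all genes were found, so that the members did not exceed the overall share in the first and the second. It was CYP79F2 in the first and the second (log2 differences of -2.57 ± 0.98 and -2.26 ± 0.96, adjusted p = 0.28 and 0.26) and MYB28 in the third (1.61 ± 0.76). DESeq2 again called 0.

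The GFP-negative nuclei of the 3 lines, each the bulk of the stem less 1 tissue, were compared with each other after these values had been seen, in a fit of the 18 libraries of the lines. In NST3pro against SMXL5pro, 8 of the 10 members were higher and 0 lower at an adjusted p of 0.05, against 8.88% and 8.82% of all genes. CYP79F1 stood at 1013, 374 and 861 CPM in the former and 38.7, 43.2 and 45.045 in the latter without overlap (log2 fold change 3.97 ± 0.53, adjusted p = 0.00060), and TGG1 at 588, 1495 and 346 against 51.5, 45.8 and 49.7 (3.79 ± 0.71, adjusted p = 0.0030). In APLpro against SMXL5pro, 2 members were higher, TGG1 (5.24 ± 0.75) and TGG2 (4.75 ± 0.67), and 0 lower, against 2.30% and 0.188%. In NST3pro against APLpro, 4 were higher, MYB28, MYB29, CYP79F1 and CYP79F2, and 0 lower, against 3.81% and 3.40%. Without replicate 47 the counts higher were 9, 3 and 4, in this order, against 9.69%, 4.70% and 3.42% of all genes, and 0 were lower, against 7.51%, 0.624% and 2.87%. In NST3pro against APLpro, CYP79F2 was then no longer called (adjusted p = 0.063) and CYP83A1 was (adjusted p = 0.021). The remainders of the 3 lines thus differed in these genes, and line, tissue removed and preparation cannot be told apart here.

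For each member that differed between tissues, the genes with the most similar levels over the 17 libraries were sought among 19930 genes of sufficient level, by the Pearson correlation of log2 levels and as a description. MAM1 was the nearest gene to CYP79F1 (0.99) and the second nearest to MYB29 (0.98) and CYP83A1 (0.97), while AK3, which encodes an aspartate kinase, was the nearest to MYB29 (0.99) and second to CYP79F1 (0.98), and SBP2 the nearest to CYP83A1 (0.97). For MYB28 these were NIA2, a nitrate reductase (0.93), and GOX1, a glycolate oxidase (0.92). GTR1 was nearest to APR3, an enzyme of sulfate reduction (0.96), and IAA18 (0.96), and GTR2 to AT3G02900 (0.89) and AT2G01720 (0.86). TGG1 was nearest to FLA12 (0.97) and TGG2 to GAMMA-TIP (0.98), and the aquaporin gene DELTA-TIP was second for both (0.97 each), whereas CYP79F2 had AT5G11730 (0.91) and AT1G56145 (0.90).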

How the data were processed

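RNA from 15000 sorted nuclei per library (10800 for LTP1pro replicate 21) was amplified by SMART-seq2. Where more than 3 samples had been made, the preparations with a strong difference in GFP cDNA between positive and negative nuclei were taken. Sequencing gave single reads of 50 bases without molecular identifiers. Copies made by amplification thus cannot be told from separate molecules, and read totals can overstate the precision. The authors trimmed reads with Cutadapt 2.3, aligned them to TAIR10 with STAR 2.5.0a and kept unique hits. The deposited read counts per Araport11 gene were made by the authors with summarizeOverlaps (R 3.5.0) in Union mode, over whole gene bodies with introns, ignoring strand and dropping reads in stretches shared by genes, so that a gene and its antisense partner cannot be told apart. Columns with the authors' own comparisons were not used.

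All genes were tested with edgeR 4.0.16 (R 4.3.3, limma 3.58.1) by its quasi-likelihood method after TMM normalization and filterByExpr, with Benjamini-Hochberg adjustment. Tissues (17 libraries) were tested at 0.01, pairs also at a log2 fold change above 1, and lines (3 against 3 libraries, own fit each) and interactions (18 libraries) at 0.05, two-sided. Alternatives were all 21 libraries, DESeq2 1.42.0, RLE size factors, no filter, voom with quality weights, a fit of 18 libraries for the lines, leaving out each library and, chosen after seeing the data, subtracting the pseudogene density, leaving out SMXL5pro and leaving out replicate 47. Lengths, positions, names and sequences are from RefSeq TAIR10.1. Scripts were tested on simulated data.

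The members and lists were chosen with earlier results of these data known. All 10 members are named, of the other pathway genes up to 3 per list with the smallest p, MAM3, GTR3 and genes that could not be tested, and for each member the 2 most similar genes with an average log2 level of at least 3.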

Additional observations from a re-analysis of the deposited data

How the results depend on the processing

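The number of members that differed between the 7 tissues was 9 and lay between 7 and 10 under all alternatives, with 9 without SMXL5pro. In that fit, against the mean of the other 5 tissues, the counts higher and lower were 5 and 1 in NST3pro (6.08% and 2.32% of all genes), 1 and 4 in VND7pro (7.90% and 1.45%), 3 and 0 in PXYpro (4.52% and 0.497%), 2 and 2 in APLpro (0.704% and 4.36%), 6 and 0 in SCRpro (4.49% and 1.56%) and 0 and 8 in LTP1pro (2.21% and 7.35%). With SMXL5pro in the fit they were 5 and 0, 3 and 4, 4 and 0, 2 and 0, 6 and 0, and 0 and 6, in the same order. Some calls thus depended on the SMXL5pro libraries. With all 21 libraries the 36 calls of a tissue against the other six became 20 and the 102 pairwise calls became 52; for these counts DESeq2 gave 39 and 106, RLE size factors 35 and 99, no filter 36 and 103, voom with quality weights 36 and 94, and subtraction of the pseudogene density 32 and 91. Leaving out each library in turn gave 8 to 10, 31 to 38 and 90 to 105. None of the 36 calls changed sign in any of these. The highest tissue of each member kept its side of the threshold except for CYP79F2 in NST3pro (1.39 with 21 libraries, 4.85 after subtraction, 1.67 to 2.14 leaving out each library) and GTR2 in APLpro (0.86 with 21 libraries, 0.94 to 1.34 leaving out each library). In the 3 lines and the interactions 0 members were called under every alternative.

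Within the lines, uncalled log2 fold changes changed sign as follows, and the cause was not tested. With voom, TGG1 became 0.042 in the NST3pro line and GTR1 and TGG2 became 0.055 and 0.063 in the SMXL5pro line. After subtraction, MYB76, GTR2, TGG1 and TGG2 became 0.63, 0.11, 0.55 and 0.12 in the NST3pro line, CYP79F1, GTR1 and TGG2 became 0.12, 0.15 and 0.14 in the SMXL5pro line, and CYP79F1 became 0.19 in the APLpro line. Without the filter GTR1 became 0.016 in the SMXL5pro line, and in the fit of 18 libraries GTR1 and TGG2 became 0.0064 and 0.0032 there. Leaving out each library gave -0.39 to 0.069 for GTR2, -0.97 to 0.56 for TGG1 and -1.11 to 0.20 for TGG2 in the NST3pro line, and -0.31 to 0.0050 for CYP79F1 in the APLpro line. In the SMXL5pro line it gave -0.52 to 0.11 for MYB29, -0.066 to 0.74 for MYB76, -0.17 to 0.038 for CYP79F1, -0.033 to 0.36 for CYP83A1, -0.22 to 0.32 for GTR1, -0.025 to 0.22 for GTR2, -0.079 to 0.31 for TGG1 and -0.24 to 0.28 for TGG2.

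No paired analysis was possible because the replicate numbers run on from group to group, so that the groups compared share none. Both populations were sorted from each line, and the labels do not say which libraries share a preparation. Library totals from 725545 reads limit genes such as MYB76 and CYP79F2, which reach the level of the pseudogenes in some tissues.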
